A study of Mus musculus with 8 samples.

Results

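The CpGs described here were read on both DNA strands. They are the sites on chromosomes 1 to 19 whose plus-strand cytosine and whose minus-strand cytosine, 1 base further right, each had 20 or more reads in all 8 libraries. This rule kept 168325 CpGs, which is 13.4% of the 1255846 CpGs with either cytosine at 10 or more reads in all 8 libraries. Counting only autosomal CpGs with either cytosine at 20 or more reads, the share was 17.7% of 952014. Just inside the threshold, at a lowest coverage of 20 to 21 reads, 14393 CpGs had a mean level of 30.6% and a mean absolute strand difference of 7.23 percentage points. Just outside it, at 18 to 19 reads, 15446 CpGs had 31.5% and 7.86 points.

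The assay was reduced representation bisulfite sequencing, which reads CpG-rich restriction fragments after bisulfite has turned unmethylated cytosines into uracil. DNA came from brain tissue labelled dDG DGC layer, taken from male C57 BL/6 mice. The groups were 4 mice that self-administered cocaine and 4 mice whose libraries are labelled self-administration saline, with 1 library per mouse, and the labels give no age, dose or time. The tissue was dissected rather than sorted, so a level is a mean over whichever cells the layer held.

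A CpG reads the same on both strands, so its cytosines face each other across the double helix. After replication the new strand is unmethylated, and the maintenance methyltransferase Dnmt1, guided by Uhrf1, copies the mark from the parental strand. Most CpGs of adult tissue therefore carry the mark on both strands or on neither, and a CpG marked on a single strand is called hemimethylated. In reduced representation libraries the usual enzyme is MspI, which cuts within CCGG and leaves recessed ends that are filled in with cytosines before adapters are joined.

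Sequence around the CpGs could be read inside promoter windows, from RefSeq promoters of GRCm38.p6. These windows, from upstream of a gene's start to just past it, held 27797 of the CpGs, and 2018 of them (7.26%) lay in the motif CCGG, which reads the same on both strands and was found in 53.5% of the 31396 promoter windows. In 3 promoters a CpG with unequal strands formed the left end of a stretch that ended in another CCGG 93 to 99 bp away. They are shown because both ends were measured on both strands, with the CCGG at each end in capitals and the plus strand written 5′ to 3′.

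Henmt1, chr3:108940342-108940444: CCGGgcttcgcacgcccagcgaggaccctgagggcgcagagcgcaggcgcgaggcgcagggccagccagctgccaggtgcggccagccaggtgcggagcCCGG

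Zrsr1, chr11:22971901-22972001: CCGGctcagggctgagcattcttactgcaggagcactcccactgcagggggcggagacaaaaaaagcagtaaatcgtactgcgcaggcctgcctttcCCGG

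LOC115490388, chr6:3182936-3183032: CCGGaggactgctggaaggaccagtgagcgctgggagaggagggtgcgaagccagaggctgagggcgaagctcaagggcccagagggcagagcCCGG

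None of the 3 stretches held a further CCGG. At Zrsr1, an imprinted retrogene related to a splicing factor, the left CpG had 38.3, 48.3, 32.6 and 56.9% on the plus strand in cocaine mice 1 to 4, against 17.9, 36.4, 26.0 and 26.7% in saline mice 1 to 4. Its minus strand had 4.08% in cocaine mouse 1, 5.17% in saline mouse 3 and 0% in the other mice. The plus strand was thus the higher strand in all 8 mice, by a mean of 34.2 points ± 4.67 (SE). At the right CpG, 97 bp on, the minus strand was the higher one in all 8 mice, with differences of -53.99 to -7.13 points. The 3 CpGs between the ends differed between strands by means of -10.8, -6.73 and -9.39 points, and none of them passed the test.

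Henmt1, which methylates the ends of small RNAs, showed the same arrangement with a mean difference of 42.2 points at the left CpG and -17.8 points at the right one. The call at the left CpG was lost in 6 of the 8 fits without 1 mouse. In cocaine mouse 4 the minus strand of the left CpG had 30.8%, against 2.17% or less in the other 7 mice. LOC115490388, a predicted locus, had 70.6 points at the left CpG and -6.93 points at the right one. The left CpG passed the test in each of the 3 promoters, and the right CpG passed it at Zrsr1 only. The call at the right CpG of Zrsr1, at an adjusted p of 0.0455 in the quasi-binomial model, was lost in each of the 8 fits without 1 mouse, while its mean difference stayed between -23.3 points and -30 points.

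Promoter windows held 9 CpGs with a mean strand difference of 30 points or more, and 5 of them lay in CCGG. The motif held 2018 promoter CpGs in all. These 5 were the left CpGs above and CpGs near Ccdc170 (30.2 points) and 1700094J05Rik (85.1 points). At mean levels of 20 to 80%, the median absolute difference was 5.66 points at 42 promoter CpGs in CCGG and 5.65 points at 215 outside it. The test was passed by 6 of the 42 and 5 of the 215. The other 4 of the 9 are shown because each has a CCGG a few bases away. They are given with 14 bases on either side and the CpG in capitals.

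Ago4, chr4:126533596-126533625: ggcagggacgggcgCGcgcccggggggccg

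Nck1, chr9:100546219-100546248: tcagcggaatgcgcCGctccgggattgggc

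Rpl15, chr14:18271121-18271150: ctgggacagcccgcCGcttccggatgctct

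5730507C01Rik, chr12:18514294-18514323: tgacaggcccggagCGcacatagccctcct

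At Ago4, an Argonaute protein of small RNA silencing, the plus strand had 0% in all 8 mice. Its minus strand had 30.4, 46.5, 60.7 and 62.6% in cocaine mice and 46.2, 51.6, 59.8 and 51.5% in saline mice. The plus strand was also at 0% in all 8 mice at Nck1, an adaptor of tyrosine kinase signalling, and at Rpl15, a ribosomal protein, with mean minus-strand levels of 37.2% and 49.1%. In those 3 windows CCGG starts 4 or 5 bases to the right of the CpG. At 5730507C01Rik the plus strand was higher, by 46.5 points, and CCGG starts 6 bases to the left. A window of this length held CCGG at 6.08% of the 23422 promoter CpGs that lay outside CCGG themselves and had a whole window. Sequence outside promoters was not read, so the motif is not described for the other CpGs.

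Level classes were set from the mean of both strands over the 8 mice. Of the CpGs, 132187 (78.5%) were low, under 20%, 16902 (10.0%) were intermediate, and 19236 (11.4%) were high, over 80%. A CpG at 100% on one strand and 0% on the other falls in the intermediate class by this definition. Within 1 kb of a gene's start or end lay 100568 CpGs (59.7%) with a mean level of 3.06%. A further 47696 lay inside genes, with a mean of 29.6%, and 20061 lay outside genes, with a mean of 52.8%.

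Over all CpGs the strands were balanced in every library. The mean difference, plus minus minus, was -0.0145, 0.0198, -0.0120 and -0.0163 points in cocaine mice 1 to 4 and -0.0782, -0.0163, -0.0512 and -0.0573 points in saline mice 1 to 4. Median coverage per strand was 55 to 77 reads in cocaine libraries and 63 to 98 reads in saline libraries. The squared strand difference was 5.41 to 7.44 times its counting variance in cocaine libraries and 6.11 to 14.1 times in saline libraries, highest in saline 1. Saline 1 also stood apart at intermediate CpGs, where its mean absolute difference was 25.3 points, against 14.7 to 20.9 points in the other 7 libraries. The labels name no molecular identifiers, and the part of copied reads in this spread was not tested.

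The strand difference at single CpGs was tested with each mouse as its own block. A quasi-binomial logistic model was used, and a CpG was called at a Benjamini-Hochberg adjusted p under 0.05 and a difference of 10 points or more. Of the CpGs, 40963 had a pooled level of 5 to 95% and entered the test, since the other 127362 lay near 0 or 100% on both strands. Calls were made at 1794 of them (4.38%), against 6.81% of all 81952 CpGs tested at 10 or more reads, of which these are a part. The plus strand was higher at 881 (2.15%) and the minus strand at 913 (2.23%), against 3.41% in either direction in the whole table. Of the called CpGs, 1631 had the same sign in all 8 mice. Without saline 1 the number of CpGs called was 1661, against 1794, and over all fits with 1 mouse left out it was 1614 to 1677.

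Calls were most frequent at intermediate levels and there the differences were large. In the intermediate class 1457 of 16900 tested CpGs were called (8.62%), with a median absolute difference of 73.5 points. The low class had 243 of 8346 (2.91%), with a median of 19.3 points, and the high class 94 of 15717 (0.598%), with a median of 14.1 points. Low and high CpGs have less room to differ, since the class limits the mean of both strands.

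At intermediate CpGs the size of the mean difference was spread unevenly. It was under 5 points at 7938 CpGs, 5 to 10 points at 4787, 10 to 20 points at 2603, and 50 to 60 points at 92. Above that the numbers were 115 at 60 to 70 points, 147 at 70 to 80, 343 at 80 to 90, and 273 above 90. The 878 CpGs of 60 points or more divided evenly, with 439 higher on the plus strand and 439 on the minus strand. Every one of these 878 had the same sign in all 8 mice, and 876 were called. The choice by the mean over the same mice favours both counts. In all 8 mice, 122 CpGs stayed over 80% on the plus strand and under 20% on the minus strand, and 125 the other way round.

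The 16 CpGs with the largest differences were close to full methylation on one strand and to none on the other. The gene table gives no exons, so each is placed inside a gene or by its nearest gene. Inside Fiz1 (chromosome 7, base 5008194), a zinc-finger gene, the plus strand had 100, 100, 94.3 and 100% in cocaine mice and 100% in all 4 saline mice. Its minus strand had 0% in all 4 cocaine mice, and 0, 0, 1.79 and 0% in saline mice. The groups overlapped fully, and the difference was 99.1 points ± 0.711 (SE), with an adjusted p of 1.24e-05 from the quasi-binomial model.

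The opposite case was a CpG outside genes on chromosome 14 (base 108339517), whose nearest protein-coding gene, Slitrk1, is 570471 bp away. Its plus strand had 0% in all 4 cocaine mice and 0, 3.23, 0 and 0% in saline mice. Its minus strand had 97.8, 100, 100 and 100% in cocaine mice and 100, 97.8, 100 and 100% in saline mice. Here the minus strand exceeded the plus strand in every mouse, which the choice of these CpGs required. The difference was -99.1 points ± 0.69 (SE).

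Higher on the plus strand were also CpGs inside Nipa2 (98.8 points), a magnesium transporter, inside Gm40601 (98.1) and inside Zfp978 (97.5), a zinc-finger gene. Outside genes, those nearest to Vmn2r82 (97.9), a vomeronasal receptor, Arhgap12 (97.7), Nrp1 (97.6), a receptor for semaphorins and VEGF, and Adnp2 (97.6), a homeobox gene, followed. Higher on the minus strand were CpGs inside Arhgap42 (-98.6), Dip2b (-98.3), Dnah8 (-98.0), an axonemal dynein, Marchf3 (-97.5), a ubiquitin ligase, and Eps15l1 (-97.1), an endocytic adaptor, and those nearest to Dtwd2 (-97.4) and Samd9l (-97.3). Outside genes the nearest gene lay 11341 bp (Adnp2) to 570471 bp (Slitrk1) away, so these names mark positions only. Of the 16 CpGs, 15 had another CpG read on both strands 94 to 100 bp away with the opposite strand higher, by 65.8 to 95.8 points. The exception was the CpG nearest to Adnp2.

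**Figure D1:**
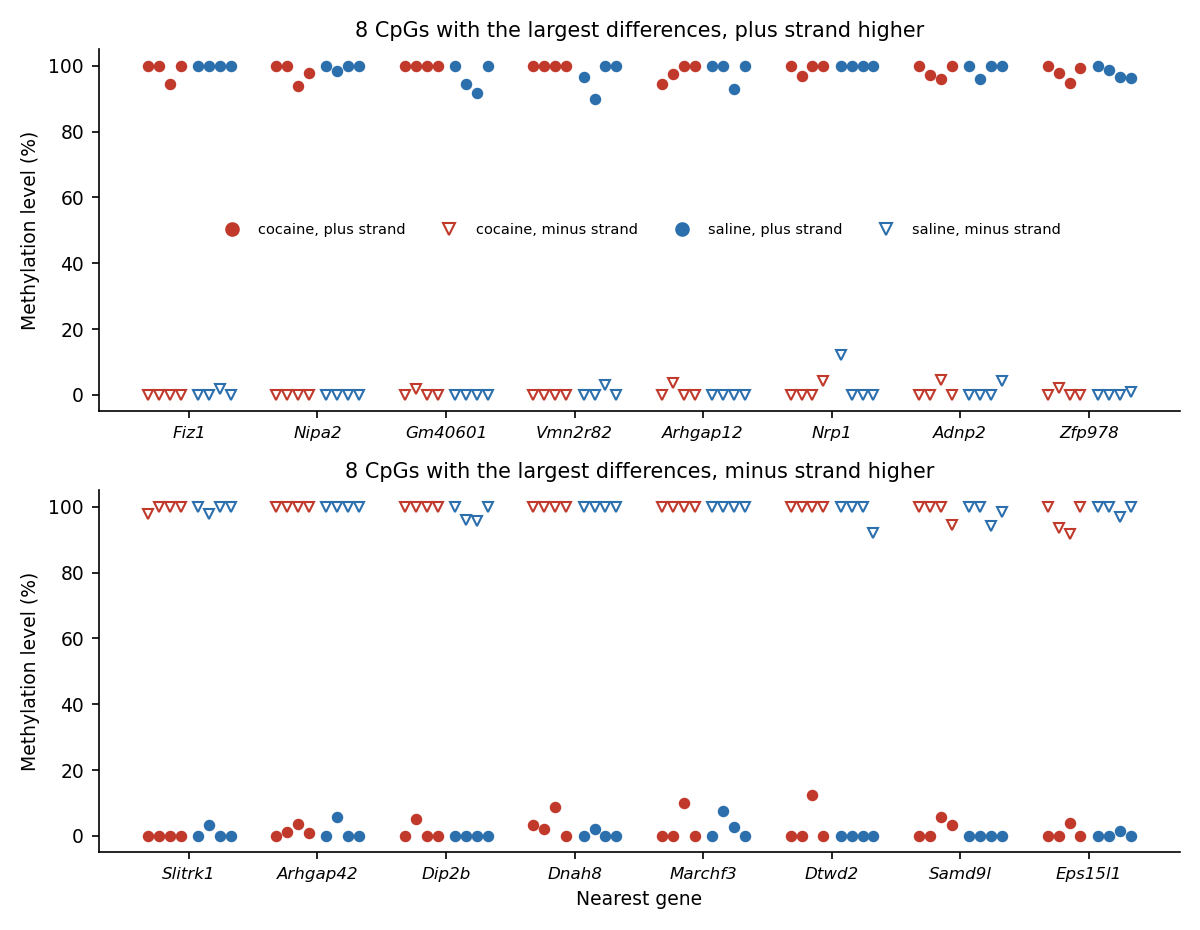
Methylation level in percent (y axis) of each mouse at the 16 CpGs with the largest strand differences, named by nearest gene (x axis), with filled circles for the plus strand and open triangles for the minus strand, cocaine in red and saline in blue. Levels on the higher strand sit between 89.8 and 100%, and those on the lower strand between 0 and 12.5%, in both groups.

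That spacing ran through the large differences. Among pairs of CpGs whose higher strand exceeded 60% at both, 1019 pairs were 93 to 100 bp apart. In 361 of them (35.4%) the left CpG was over 40 points higher on the plus strand and the right CpG over 40 points higher on the minus strand. The reverse arrangement occurred in 0 of the 1019 pairs. Mean differences were 32.4 points at the left CpG and -32.4 points at the right CpG.

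Outside this range of distances the arrangement was nearly absent. It was found in 1 of 16187 pairs 2 to 92 bp apart, whose means were 3.05 points on the left and -3.09 points on the right. It was found in 0 of 270 pairs more than 100 and up to 130 bp apart, with means of -2.17 and -1.78 points. At exactly 100 bp the means were 42.2 and -40.1 points over 151 pairs, and 67 of those pairs were opposed.

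**Figure D2:**
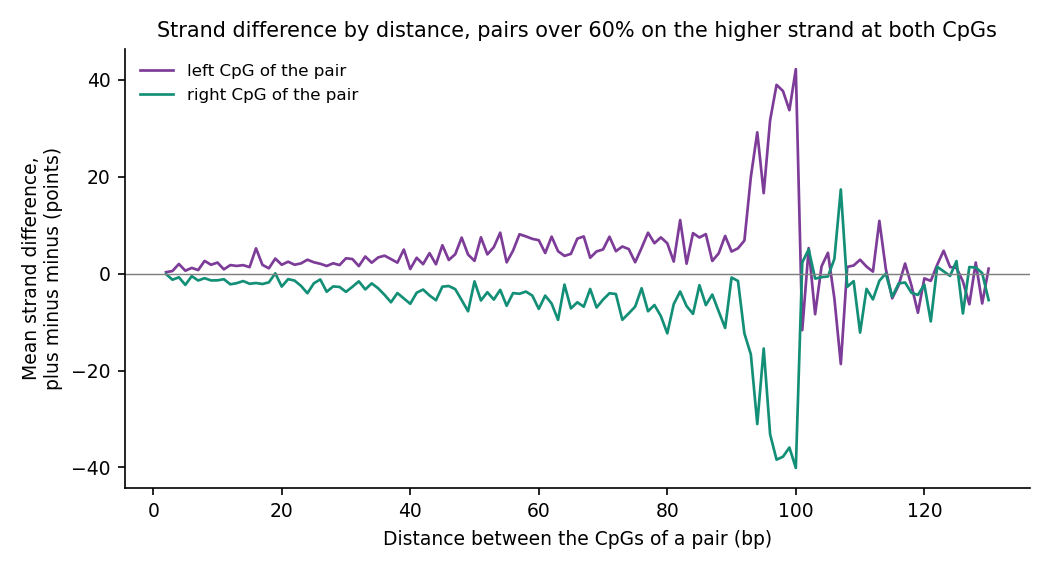
Mean strand difference in percentage points (plus minus minus, y axis) of the left CpG (purple) and the right CpG (green) of a pair, by the distance between them in bp (x axis), over pairs whose higher strand exceeds 60% at both CpGs. The curves part slowly up to 92 bp, reach 42.2 and -40.1 points at 100 bp, and meet again beyond it.

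The same held when CpGs were sorted by neighbour rather than by difference. Among tested CpGs with another both-strand CpG 93 to 100 bp to the right and none to the left, 717 of 2566 were called (27.9%), and 703 of these were higher on the plus strand. With the other CpG to the left only, 716 of 2573 were called (27.8%), and 706 were higher on the minus strand. Without another CpG at that distance, 341 of 35635 were called (0.957%), of which 159 were higher on the plus strand and 182 on the minus strand. With a right neighbour at 85 to 92 bp instead the share was 6.64%, and in the next 8 bp beyond 100 bp it was 3.37%. The side was unequal at shorter distances too, with 98 calls higher on the plus strand and 20 on the minus strand at 85 to 92 bp. At 45 to 52 bp to the right the numbers were 112 and 18, and just beyond 100 bp they were 5 and 10. These counts were chosen after the distances had been seen, and they carry no test.

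Dropping the requirement on the higher strand, 384 pairs at 93 to 100 bp were opposed, with over 40 points at both CpGs. They lay on all 19 autosomes and comprised 768 CpGs. Of these, 414 were inside genes, 298 outside genes and 56 within 1 kb of a gene's start or end. The opposed pairs held 666 of the 878 CpGs of 60 points or more. Of the other 212, 202 had a CpG listed on either strand at 93 to 100 bp on the side the arrangement would place it. How often any CpG has one listed on a given side was not counted. The 3 promoter stretches shown above are not opposed pairs, since their right CpGs differed by -27.1 (Zrsr1), -17.8 (Henmt1) and -6.93 points (LOC115490388). In that order, their highest coverage was 73, 115 and 240 reads at the left CpG and 132, 231 and 570 reads at the right CpG.

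CpGs between the 2 ends of opposed pairs did not share the difference. In 259 of the pairs, 504 CpGs with both strands read lay in between. Their mean level was 86.3% on the plus strand and 86.4% on the minus strand, and their mean absolute difference was 4.18 points. Only 1 of the 429 tested was called, and 0 reached 40 points. Read depth was alike at both ends, with a median ratio of left to right coverage of 0.941 to 1.05 on the same strand. Coverage at both ends agreed within 10% in 61.7 to 83.1% of pairs. Fill-in of recessed ends and the trimming of read ends, which is not given in the sources used here, were not tested as a source of the opposed pairs.

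How far the strand difference was shared between mice was described by the Pearson correlation over CpGs for the 28 pairs of mice. These points share strand, sequence and fragment, and differ in depth between libraries. At intermediate CpGs the mean correlation was 0.582, from 0.450 to 0.720. It was 0.0806 at low CpGs and 0.0293 at high CpGs. Pairs of cocaine mice averaged 0.558, pairs across groups 0.583 and pairs of saline mice 0.604 at intermediate CpGs. Saline 1 averaged 0.497 with the other mice, and without it the mean was 0.610.

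The shared component at intermediate CpGs had an SD of 20.8 points, or 56.7% of the variance. Among the 2775 intermediate CpGs with another CpG at 93 to 100 bp, the mean correlation was 0.904. Among the 14127 without one it was 0.102, with a shared SD of 5.86 points, or 9.11% of the variance. The same step occurred at low CpGs, with 0.239 against 0.0253, and was smaller at high CpGs, with 0.0852 against 0.0249. Without such a neighbour, 26 of 14127 intermediate CpGs had a mean difference of 60 points or more.

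**Figure D3:**
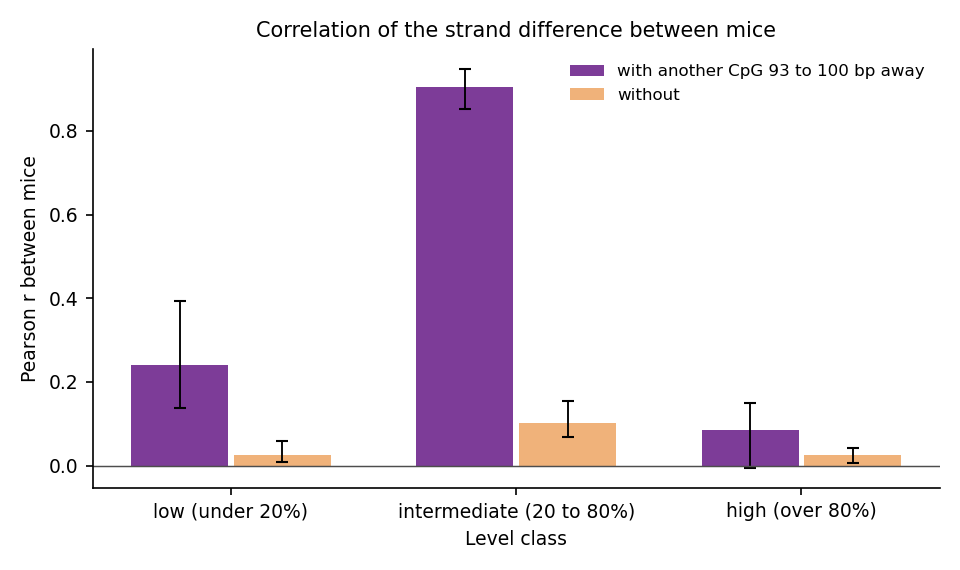
Mean Pearson correlation of the strand difference over the 28 pairs of mice (y axis) by level class (x axis), for CpGs with another CpG 93 to 100 bp away (purple) and without (orange), with bars from the lowest to the highest pair. At intermediate levels the means are 0.904 and 0.102.

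Intermediate CpGs outside the opposed pairs showed a weak local likeness. The mean difference of a CpG in cocaine mice and that of the next CpG in saline mice correlated at 0.156 over 1585 pairs 2 to 10 bp apart, and at 0.116 with the groups exchanged. The values were 0.110 and 0.101 at 11 to 20 bp and 0.0484 and 0.0562 at 21 to 50 bp. They were already negative at 51 to 92 bp, with -0.0946 and -0.0282 over 837 pairs. At 93 to 100 bp they were -0.511 and -0.468 over 215 pairs. Within a mouse, neighbouring CpGs are often read by the same reads, but each of these correlations pairs values of different mice. The source of the likeness was not tested.

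Strand differences were called in 5 of the 7 gene lists. The opposed pairs held 2 of the 308 CpGs of the methylation machinery and 2 of the 728 in extracellular matrix genes. They also held 4 of the 1072 in synaptic and plasticity genes, 0 in the other lists and 768 of all 168325 CpGs. Whether the CpGs named below are among these was not examined. For the machinery of DNA methylation, 4 of 49 tested CpGs were called (8.16%), in 2 of the 17 genes with a CpG read on both strands. Inside Dnmt3b, a de novo methyltransferase, the plus strand of 1 CpG (chromosome 2, base 153662929) had 0, 5.71, 8.89 and 0% in cocaine mice and 0, 2.63, 0 and 14.3% in saline mice. Its minus strand had 100, 100, 100 and 73.9% in cocaine mice and 100% in all 4 saline mice. The minus strand was higher in every mouse, by a mean of 92.8 points. Inside Mbd2, a reader of methylated CpGs, another CpG had a difference of -47.4 points.

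Imprinted genes had 4 calls among 162 tested CpGs (2.47%). Besides Zrsr1, the CpG with the largest difference near Slc38a4, an amino acid transporter, lay closest to Gm32840, where the difference was 33.99 points. For extracellular matrix genes, 7 of 212 were called (3.30%). The CpG inside Col4a1, a basement membrane collagen (chromosome 8, base 11303804), had 100, 96.0, 91.4 and 91.7% on the plus strand in cocaine mice and 100, 94.5, 94.3 and 100% in saline mice. Its minus strand stayed at 10.2% or less in all 8 mice. Col11a1, a fibrillar collagen, had -75.0 points, and Acan, the aggrecan core protein of perineuronal nets, had 34.5 points. The call at Acan was lost without cocaine 2, with an adjusted p of 0.0537.

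Genes of dentate granule cell identity had 4 calls among 51 tested CpGs (7.84%). Inside Prox1, a transcription factor of granule cells (chromosome 1, base 190162212), the plus strand had 13.7, 11.3, 30 and 22.4% in cocaine mice and 33.3, 19, 26.4 and 5.13% in saline mice. Its minus strand had at most 2.04% in any mouse, and the mean difference was 19.7 points. Dsp, which encodes desmoplakin, had -30.5 points, and the channel gene Trpc6 had -14.3 points. The call at Trpc6 was lost in 7 of the 8 fits without 1 mouse.

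Synaptic and plasticity genes had 18 calls among 294 tested CpGs (6.12%), 9 in each direction. Inside Dlgap2, a postsynaptic scaffold (chromosome 8, base 14629856), the minus strand had 76.7, 94.9, 100 and 100% in cocaine mice and 100% in all 4 saline mice. Its plus strand had at most 7.59%. Nrxn3, a presynaptic adhesion protein, had -93.8 points, and Cacna1g, a T-type calcium channel, had 81.9 points. No call was made by the quasi-binomial test at the 34 tested CpGs of genes of other hippocampal neurons or at the 51 of glial and vascular genes. The mean level was 7.21% over CpGs of granule cell genes, 7.02% over those of other hippocampal neurons, 12.6% over glial and vascular genes and 16.5% over all CpGs read on both strands, so these levels do not tell which cells the layer held. Over all 40963 CpGs tested the share called was 4.38% and the median absolute difference was 3.78 points, against medians of 3.21 to 6.07 points in the 7 lists.

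Cocaine and saline mice were compared first in the strand difference itself. None of the 40963 CpGs was called by the quasi-binomial strand by group term, where the smallest adjusted p was 0.918, and 0 of the 81952 in the whole table (0%). At an unadjusted p under 0.05 there were 2040 (4.98%), against 5.24% of the whole table. Of these, 1048 had a more positive difference in cocaine mice and 992 a more negative one. limma on differences in points and a dispersion moderated across CpGs also called 0, with 1517 and 2316 at an unadjusted p under 0.05.

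The CpGs of smallest unadjusted p had opposite signs in the groups. Inside Rhobtb1 (chromosome 10, base 69268534), the plus strand had 41.0, 31.0, 20 and 35.2% in cocaine mice and 30.6, 70.3, 57.0 and 30.6% in saline mice. The minus strand had 43.8, 45, 42.1 and 46.4% in cocaine mice and 0, 40, 25 and 6.06% in saline mice. The difference averaged -12.5 ± 7.99 points in cocaine mice and 29.4 ± 3.31 points in saline mice (SD, n = 4 each), and the groups did not overlap. The summed level was 38.6% in cocaine mice and 37.7% in saline mice.

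Differences were also more negative in cocaine mice near Morn3 (-31.6 points, cocaine minus saline), Sel1l2 (-27.7) and Nuggc (-23.1). They were more positive near Gramd1a (46.9), a carrier of cholesterol between membranes, Tmem43 (33.8), Gm6098 (32.8) and Ror2 (30.3), a receptor for Wnt5a. None of the 8 passed the adjustment, and with 4 mice a group they were picked from 40963 CpGs for their small p.

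**Figure D4:**
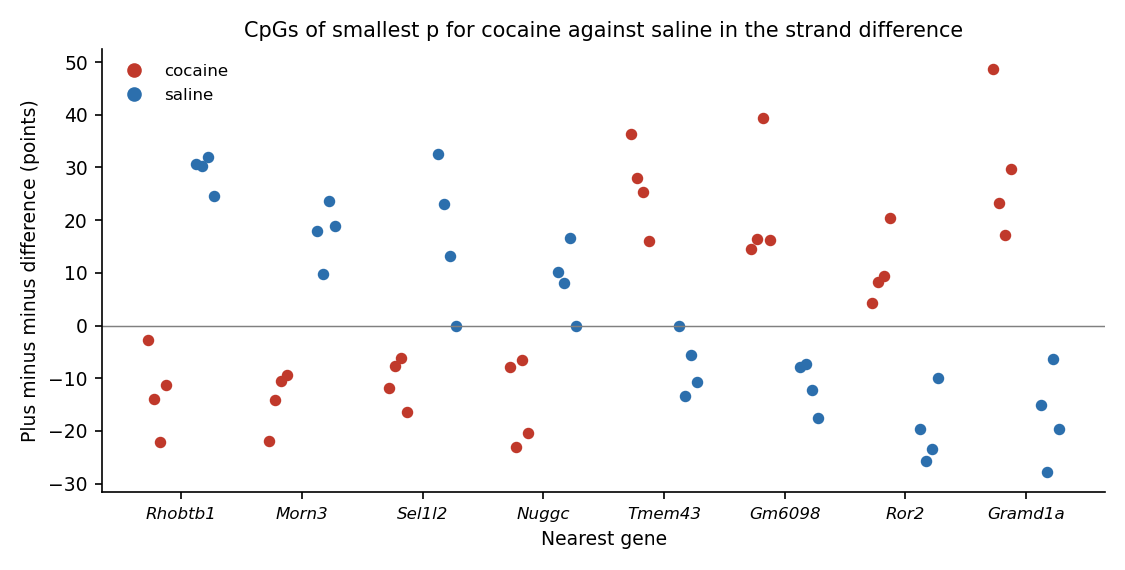
Strand difference in percentage points (plus minus minus, y axis) of each mouse at the 8 CpGs of smallest unadjusted p for cocaine against saline, named by nearest gene (x axis), cocaine in red and saline in blue. The groups do not overlap at these CpGs, which were picked for their small p, and the adjusted p was 0.918 at each.

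The level with both strands summed gave no call either. In the quasi-binomial group term the adjusted p was 0.953 at its smallest, and 0 of the 81952 CpGs in the whole table were called (0%). At an unadjusted p under 0.05 there were 2010 (4.91%), against 5.01% of the whole table, and 1537 of them were lower and 473 higher in cocaine mice. limma and the moderated dispersion called 0, with 1707 and 2263 at an unadjusted p under 0.05. The median difference over the tested CpGs was -1.28 points. The split by direction was not counted over the whole table. Cocaine 3 had the lowest mean level at intermediate CpGs, 47.9% on the plus strand, against 50.3 to 53.2% in the other libraries.

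At the CpGs with the smallest unadjusted p for the level, both strands differed between groups in the same direction, which the choice by the summed level favours. Inside Ctnna3, an alpha catenin (chromosome 10, base 63785016), the summed level was 22 ± 5.86% in cocaine mice and 58.9 ± 3.55% in saline mice (SD, n = 4 each). The plus strand differed by -35.4 points and the minus strand by -34.8 points. Inside Pcnx2 the level was 90 ± 3.43% in cocaine mice and 76.1 ± 2.70% in saline mice, with 14.7 points on the plus strand and 13.4 on the minus strand. Lower in cocaine mice by level were also CpGs inside Zfp993 (-21.3 points), inside Polr3a (-11.1), a subunit of RNA polymerase III, and 29352 bp from Hspa8 (-15.5). Higher were CpGs inside 4921515E04Rik (17.6), 6502 bp from Gm32719 (11.9), and on chromosome 9 at base 3000472 (7.18), where the nearest protein-coding gene, Alkbh8, is 334759 bp away. Coverage per strand was 197 to 557 reads at the CpG near Gm32719 and 47 to 646 reads at the one on chromosome 9. Library medians per strand were 55 to 98 reads.

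Over all CpGs the cocaine minus saline difference on the plus strand was only weakly related to that on the minus strand. Its correlation between strands, over CpGs, was 0.0857 at low, 0.0468 at intermediate and 0.0243 at high CpGs. At 674 intermediate CpGs with a difference of 20 points or more on the plus strand, the minus strand had the same sign at 57.4%. Over all 16902 intermediate CpGs the sign was the same at 52.2%. At the 674, the median ratio of the minus-strand to the plus-strand difference was 0.0665, which the choice by the plus strand pulls towards 0. The deviations of single mice from the CpG's mean over the 8 mice were as weakly related between strands, with correlations of 0.0887, 0.0743 and 0.0326 in the low, intermediate and high classes. At intermediate CpGs the deviations had a total SD of 13.3 points per strand, and the component common to both strands had an SD of 3.64 points. Both SDs are corrected for centring on the mean over the 8 mice. Plus and minus reads of a mouse come from different strands of its fragments, and each value carries its own counting error.

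For summaries per mouse, exact permutation over the 70 ways to form 2 groups of 4 gave a two-sided p, which cannot go below 0.0286, adjusted over 16 summaries. The mean absolute strand difference at intermediate CpGs was 19.1 ± 1.84 points in cocaine mice and 18.8 ± 4.59 points in saline mice (SD, n = 4 each), with an exact p of 0.943. Without saline 1 the difference was 2.43 points, with an exact p of 0.200. The mean level on the plus strand was 16.3 ± 0.517% in cocaine mice and 16.7 ± 0.0542% in saline mice, and on the minus strand 16.3 ± 0.517% and 16.8 ± 0.0529%, with an exact permutation p of 0.143 on either strand. The cocaine minus saline differences, -0.408 and -0.453 points on the plus and minus strand, were -0.185 and -0.232 points without cocaine 3. Without cocaine 4 they were -0.603 and -0.652 points, with an exact permutation p of 0.0286 and an adjusted p of 0.114. No summary passed the adjustment.

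In the 384 opposed pairs, which were chosen by their mean over all 8 mice, the groups did not overlap. On the lower strand the mean level was 9.39, 8.60, 11.5 and 8.99% in cocaine mice 1 to 4, against 6.73, 7.42, 7.01 and 7.28% in saline mice 1 to 4. All 4 cocaine mice were above all 4 saline mice, with a difference of 2.52 points, an exact permutation p of 0.0286, the smallest possible, and an adjusted p of 0.229. On the higher strand the mean was 88.2 ± 0.835% in cocaine mice and 89.3 ± 0.191% in saline mice, also without overlap, with the same exact permutation p and adjusted p. That difference, -1.07 points, was -0.704 points without cocaine 1, and at 30 or more reads it was -0.897 points with an exact permutation p of 0.0857. The lower strand was at exactly 0% in 19.1 to 43.5% of these CpGs in cocaine libraries and in 32.3 to 63.5% in saline libraries, and their median coverage was 40 to 54 reads in cocaine libraries and 49 to 71 reads in saline libraries. The lower-strand difference was 2.95 points over CpGs with 10 or more reads, 2.52 points at 20 or more and 1.86 points at 30 or more, each without overlap of the groups.

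**Figure D5:**
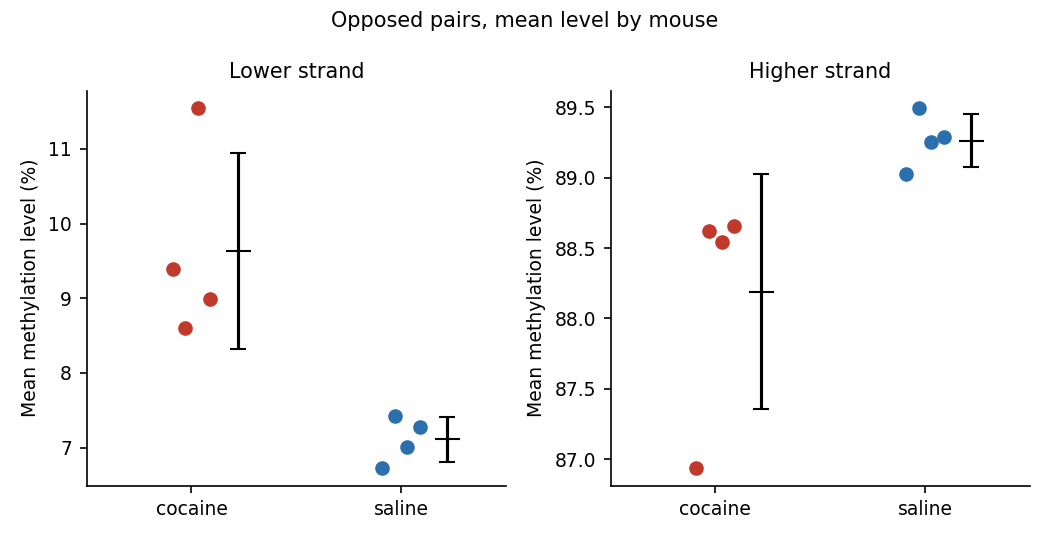
Mean methylation level in percent (y axes, not starting at 0) of the lower strand (left panel) and the higher strand (right panel) over the 384 opposed pairs, 1 point per mouse, with the mean and SD of each group beside the points, cocaine in red and saline in blue. On the lower strand cocaine mice sit between 8.60 and 11.5% and saline mice between 6.73 and 7.42%.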

How the data were processed

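Each of the 8 libraries has a file of cytosines with strand, level and coverage, and groups and replicate numbers came from the sample titles. Bismark 22.1 and bcl2fastq with build mm10 were used, per the submitters' processing notes, and for trimming and for the handling of duplicates the sources used here give nothing. The level is deposited as a fraction from 0 to 1, and the coverage deposited by the authors is a count of reads of at least 10. Level times coverage was a whole number at 100% of cytosines, within 5e-07 times the coverage, so methylated reads were recovered by rounding. Each library listed 1844706 to 2236384 cytosines, with 87964952 to 141775386 reads summed over them.

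Plus and minus cytosines were joined at an offset of 1 base, which gave 254539 CpGs at 10 or more reads in all 8 libraries on chromosomes 1 to 19, X and Y. Tests were fitted on the 81952 of these with a pooled level of 5 to 95%. Quasi-binomial logistic models had 0.5 reads added per cell, each CpG's own Pearson dispersion with a floor of 1, and F tests on 7 residual degrees of freedom for the strand and 6 for the groups. Python 3.11.15, numpy 2.4.6, scipy 1.17.1, R 4.3.3 and limma 3.58.1 were used, and the models were tested on simulated data. Alternatives covered coverage, level filters, dispersion, limma, thresholds, level classes, the replicate number as a block and each mouse left out.

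Named CpGs were the 8 largest called differences per direction with the same sign in all 8 mice, up to 3 genes per list, and, with no call between groups, the 4 smallest p per direction, 1 per 1 kb. Promoter CpGs of 30 points or more and the sequence stretches were chosen after their values were seen. The CpGs, gene lists and tests were chosen with earlier results of these data known. Genes came from RefSeq tables of GRCm38.p6.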

Additional observations from a re-analysis of the deposited data

Results flagged for a closer look

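In groups of 4 mice, 144 were examined for 1 mouse far from the other 3, and 25 were flagged, where chance flags about 1 in 20. Among the summaries, cocaine 2 had a mean strand difference over all CpGs of 0.0198 points and a mean absolute difference at high CpGs of 7.83 points, below 9.38 to 9.59 points in the other cocaine mice. Cocaine 1 had a mean strand difference of -0.222 points at intermediate CpGs, against 0.0986 to 0.104 points in the other cocaine mice, and a higher-strand level of 86.9% in opposed pairs.

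At CpGs near full difference, 3 mice tied at 100 or -100 points and the fourth was flagged for any other value. These were 94.3 points in cocaine 3 and 98.2 points in saline 3 at Fiz1, 98.4 points in saline 2 at Nipa2, 98.3 points in cocaine 2 at Gm40601, 93 points in saline 3 near Arhgap12 and 88.0 points in saline 1 near Nrp1. With the minus strand higher, they were -97.8 points in cocaine 1 and -94.6 points in saline 2 near Slitrk1, -94.4 points in saline 2 at Arhgap42, -94.7 points in cocaine 2 at Dip2b, -98.0 points in saline 2 at Dnah8, -90.0 points in cocaine 3 at Marchf3, -87.5 points in cocaine 3 and -91.9 points in saline 4 near Dtwd2, -95.4 points in saline 3 at Eps15l1 and -98.2 points in saline 2 at Dlgap2.

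At CpGs with room to vary, cocaine 3 had 39.4 points at Gm6098 and 44.8 points at Acan. Cocaine 2 had -29.5 points at Zfp993, where the other cocaine mice had 0.428 to 2.09 points. Cocaine 1 had -28.3 points near Nkiras1, at the Rpl15 promoter CpG, where the other cocaine mice had -59.3 to -55.3 points. Saline 2 had -45.0 points at the right end of the Zrsr1 stretch, against -18.4 to -13.2 points in the other saline mice.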

How the results depend on the processing

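The number of CpGs called for a strand difference was 1794, from 1614 to 1677 with 1 mouse left out, and stayed within 1.5 times of that under both other tests, both other level filters, both other thresholds and without the top 1% of coverage. It was 5548 at 10 or more reads, where 80995 CpGs were tested, 586 at 30 or more, where 17916 were tested, and 341 without CpGs that have another at 93 to 100 bp, an alternative chosen after seeing the data. Between groups every alternative gave 0 calls, for the strand difference and for the level. The mean correlation between mice at low CpGs, 0.0806, was 0.119 at 10 or more reads, 0.0539 at 30 or more, 0.0293 with classes cut at 10 and 90%, 0.114 with 1 CpG per 100 bp and 0.0253 without neighbours at 93 to 100 bp. At intermediate CpGs, 0.582 became 0.50 with classes cut at 10 and 90% and 0.102 without such neighbours, and at high CpGs, 0.0293 became 0.0128 with the other classes. With 1 mouse left out the ranges were 0.0699 to 0.0893, 0.558 to 0.610 and 0.0257 to 0.0321. No summary passed the adjustment under any alternative, and some group differences near 0 changed sign, for which the cause was not tested. Cocaine minus saline was -0.0265 points for the mean strand difference at high CpGs at 10 or more reads, -0.0745 points for the mean absolute difference over all CpGs at 30 or more, and, for the spread beyond counting, 0.194 points over all and 0.390 points at intermediate CpGs without neighbours at 93 to 100 bp. With 1 mouse left out, cocaine minus saline ran from -1.13 to 2.43 points for the mean absolute difference at intermediate CpGs, -0.275 to 0.497 over all and -0.284 to 0.0309 at low CpGs. It ran from -0.00505 to 0.0125 for the mean difference at low CpGs, and for the spread beyond counting from -0.753 to 0.826 over all, -0.636 to 0.458 at low, -1.85 to 1.31 at intermediate and -0.354 to 2.75 at high CpGs. It ran from 1.90 to 2.82 points on the lower strand and from -1.23 to -0.704 points on the higher strand of opposed pairs, and from -0.603 to -0.185 and from -0.652 to -0.232 points for the mean level on the plus and minus strand. For the single CpGs named for a strand difference, refitted under both other tests and with 1 mouse left out, the call was lost in 22 fits, at Henmt1 (left), Zrsr1 (right), Trpc6 and Acan, gained in 2, at Henmt1 (right), and kept its side in 376. The replicate numbers are not stated to mark a shared litter, batch or day, and deviations of same-numbered mice in level correlated at -0.0310, -0.00678, 0.0103 and 0.0755, so the numbers were not taken as pairs. With the replicate number as a block there were 0 calls for either comparison, with 1249 and 1454 CpGs at an unadjusted p under 0.05, and sign flips within numbers cannot go below an exact p of 0.125. Only replicate 4 correlated best with its own number. A call needs consistent differences over 4 mice per group at 20 or more reads, where intervals from reads would cover counting error only.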
